A study of Mus musculus with 2 samples.

Results

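Interferon gamma signalling and its guanosine triphosphatase (GTPase) target genes were followed in leukocytes from Ythdf2 KO and WT mouse tumours. The set holds 29 of the 32285 genes in the deposited matrices, picked by symbol: 16 GTPases and 13 genes of the signalling arm or its other targets. The rule for the set uses no measured value, and all 29 symbols were found. Interferon gamma is released mainly by NK cells and T cells and binds a receptor made of 2 chains, whose associated kinases Jak1 and Jak2 start a signal to the nucleus. Promoters of the responding genes carry GAS elements and ISRE elements, and Irf1, itself induced, binds ISRE elements. Among the targets are the guanylate-binding proteins and the immunity-related GTPases, which attack the membranes of vacuoles that hold intracellular microbes, and in tumours the same programme is read as a trace of interferon reaching a cell.

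The Ythdf2 KO library and the WT library each came from CD45+ cells sorted from tumours of C57BL/6 mice, with 1 library per genotype. YTHDF2 is a protein that binds N6-methyladenosine in mRNA and speeds its decay, and the series title concerns its role inside tumour cells. The knockout is attached to the tumours in the sample labels and to cKO mice in the design text, and these sources do not say which cells had lost the gene. Neither the tumour line, the age of the mice nor the number of animals pooled into a library is given in those sources. Libraries were made with a 10x Genomics kit for the 5′ ends of transcripts, in which each captured molecule is counted once through its unique molecular identifier (UMI).

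Promoter sequence shows which of the members carry the 2 elements named above. RefSeq start sites (GRCm38.p6) gave a window of 300 bases, 250 before and 50 after the start, for 21 of the 29 members. Searched on both strands, the GAS motif TTCNNNGAA, which reads the same on either strand in its fixed letters, was present in 42.9% of these 21 genes and in 9.55% of all 27025 genes with a window. The ISRE core GAAANNGAAA, or TTTCNNTTTC on the other strand, was present in 52.4% of the 21 members and in 3.99% of all genes. Members with more than 1 start counted once. The ISRE core stood in 10 of 11 GTPase genes and in 1 of 10 of the others (Socs1), and the GAS motif in 6 of 11 GTPase genes and in 3 of 10 of the others (Irf1, Irf8 and Socs3). A match describes the letters of the window and does not show that a factor binds there. The windows of Irgm1, Gbp2, Gbp5 and Irf1 are printed as examples with a match, and all 4 genes were lower in CD8 T cells of the Ythdf2 KO library. They do not stand for all lower members: the windows of Jak2, Irf9 and Ifi47, also lower there, hold neither motif. Nor was every measured gene with a match lower there. Gbp3, Igtp and Socs3 were, but Irf8, with 2 GAS motifs in 1 window, was higher, and Gbp7 and Socs1 stayed within 1.5-fold. Each window runs 5′ to 3′ on the strand of its gene, with the matches in capitals. Irgm1 lies on the minus strand of chromosome 11, and its 2 matches to the ISRE core overlap in the window chr11:48871371-48871670. Gbp2 has 1 ISRE core in chr3:142620413-142620712 on the plus strand. Gbp5 has 1 ISRE core between 2 GAS motifs in chr3:142496684-142496983 on the plus strand. Irf1 has 1 GAS motif, 90 bases before that start, in chr11:53769764-53770063 on the plus strand. The window of another Irf1 start, not printed, holds no match.
Irgm1: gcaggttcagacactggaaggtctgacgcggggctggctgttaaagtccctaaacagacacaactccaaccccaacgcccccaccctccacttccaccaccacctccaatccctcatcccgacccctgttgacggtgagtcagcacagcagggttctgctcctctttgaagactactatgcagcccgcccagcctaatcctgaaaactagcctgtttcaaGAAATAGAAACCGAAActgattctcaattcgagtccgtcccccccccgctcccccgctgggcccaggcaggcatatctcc
Gbp2: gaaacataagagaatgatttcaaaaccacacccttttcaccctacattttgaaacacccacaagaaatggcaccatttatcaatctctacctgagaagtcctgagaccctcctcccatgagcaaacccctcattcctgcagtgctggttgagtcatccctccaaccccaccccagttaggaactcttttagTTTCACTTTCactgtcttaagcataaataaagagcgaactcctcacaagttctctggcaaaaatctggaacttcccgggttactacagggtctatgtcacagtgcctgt
Gbp5: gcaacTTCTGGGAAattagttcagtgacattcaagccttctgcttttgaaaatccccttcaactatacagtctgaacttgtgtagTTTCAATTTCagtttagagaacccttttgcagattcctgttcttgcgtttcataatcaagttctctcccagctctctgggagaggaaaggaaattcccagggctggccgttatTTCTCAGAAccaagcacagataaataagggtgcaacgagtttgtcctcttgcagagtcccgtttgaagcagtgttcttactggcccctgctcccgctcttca
Irf1: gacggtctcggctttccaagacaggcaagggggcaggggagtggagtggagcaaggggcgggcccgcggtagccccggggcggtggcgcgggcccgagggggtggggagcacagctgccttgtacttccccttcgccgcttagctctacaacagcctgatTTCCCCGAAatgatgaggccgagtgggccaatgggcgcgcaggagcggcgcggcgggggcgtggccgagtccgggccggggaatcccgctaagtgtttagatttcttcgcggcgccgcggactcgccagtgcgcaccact

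The Ythdf2 KO matrix held 134066610 UMIs in 16312 barcodes and the WT matrix 168912853 UMIs in 20886 barcodes, and 101 barcode sequences occurred in both. After filters and doublet removal 14576 and 18782 barcodes remained, with median depths of 5381.5 and 5330.5 UMIs. Gates on marker UMIs, none of them a member of the set, placed 75.2% and 74.0% of them in 17 leukocyte types. Of these, 10 large types held at least 100 barcodes in each library. A gene is called highest, lowest or peaking in a type among these 10 only. Levels are given in CPM, the gene's UMIs scaled to a common total for each type, and ratios are Ythdf2 KO over WT. Intervals are exact 95% intervals for counting error only, and with 1 library per genotype no difference has a replicate check. A gene was counted as measured in a type with at least 50 UMIs over both libraries, and as higher or lower at a ratio of at least 1.5 or at most its inverse. Ptprc, which encodes CD45, was detected at 822 and 862 CPM. Over all cells Ythdf2 itself stood at 46.3 CPM in the Ythdf2 KO library and 48.4 CPM in the WT library. The ratio was 0.955 (0.921 to 0.991), so the pool of all cells did not show loss of Ythdf2 RNA. A loss limited to some cell types could be masked in that pool, and Ythdf2 levels by type are not given here. The stretch of the transcript that was read is not known. Rhox5, used as a check for tumour cell RNA, had 36.9 and 5.41 CPM.

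The receptor chains and kinases of the pathway differed more between cell types than between genotypes. Ifngr1, the chain that binds interferon gamma, was highest in other T cells, those with T cell genes but without the UMIs that define the remaining T cell gates. Its level there was 521 CPM in the Ythdf2 KO library and 520.1 CPM in the WT library (ratio 1.00, 0.893 to 1.12), and in macrophages it was 136 and 138 CPM. Its ratios lay between 0.882 and 1.18 over the 9 large types in which it was measured. Ifngr2, the chain needed for signalling, went the other way across types. It had 112 and 122 CPM in macrophages (0.915, 0.863 to 0.970) and 114 and 84.4 CPM in patrolling monocytes (1.35, 1.05 to 1.74), against 6.39 and 4.82 CPM in NK cells. NK cells thus held the first chain at 322 and 303 CPM beside very few UMIs of the second, in both libraries. Ifngr2 passed the 1.5-fold limit in other T cells, with 47.3 CPM in the Ythdf2 KO library against 29.2 CPM in the WT library (1.62, 1.04 to 2.53). That ratio rests on 49 and 39 UMIs and came to 1.31 in barcodes with few myeloid UMIs.

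Jak1, the kinase on the first chain, was measured in all 10 large types with ratios of 0.812 to 1.06. Its highest levels were 323 and 305 CPM in B cells (1.06, 0.828 to 1.37) and 254 and 313 CPM in other T cells (0.812, 0.693 to 0.950). Jak2, the kinase on the second chain, was highest in mature dendritic cells (DC), at 235 and 307 CPM (0.766, 0.672 to 0.871). It was below the WT level in 7 of 9 large types, among them macrophages at 58.5 and 73.8 CPM and classical monocytes at 97.6 and 122 CPM, but passed the 1.5-fold limit in CD8 T cells alone.

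Among the transcription factors, Irf1 was highest in patrolling monocytes, at 499 CPM in the Ythdf2 KO library and 433 CPM in the WT library (1.15, 1.03 to 1.29), and lowest in NK cells, at 68.7 and 72.5 CPM. Irf8, which directs the development of DC and monocytes, stood at 1532 and 1671 CPM in mature DC (0.917, 0.870 to 0.965) and at 1319 and 1324 CPM in NK cells, far above its 138 and 135 CPM in neutrophils. Irf9, the DNA-binding subunit of the complex that answers type I interferon, was highest in neutrophils at 133 and 135 CPM (0.984, 0.868 to 1.12). Batf2, a basic leucine zipper factor of activated macrophages, was highest in macrophages with 46.1 and 47.9 CPM (0.963, 0.878 to 1.06) and had no UMI in B cells of either library. A count of 0 there allows up to 4.73 CPM in the Ythdf2 KO library and 9.52 CPM in the WT library. In NK cells Batf2 had 2.67 and 1.44 CPM (1.85, 1.15 to 2.998), from 38 and 37 UMIs, and the ratio was 1.31 with each cell weighing the same.

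The brakes of the pathway followed lineage as well. Socs1, which blocks the Jak kinases, was highest in other T cells at 249.9 and 242 CPM (1.03, 0.873 to 1.22). Socs3, better known as the brake on interleukin 6 signalling, was highest in patrolling monocytes at 620 and 527 CPM (1.18, 1.06 to 1.30) and stood at 322 and 296 CPM in macrophages. Ptpn2, a phosphatase that acts on Jak kinases, was highest in mature DC at 75.5 and 82.6 CPM (0.914, 0.719 to 1.16), against 43.3 and 45.9 CPM in macrophages. Of the 2 metabolic enzymes in the set, the NAD-consuming ectoenzyme Cd38 was highest in B cells and lower there in the Ythdf2 KO library, at 83.5 against 137 CPM (0.612, 0.401 to 0.937). Ido1, the tryptophan-degrading enzyme often taken as a mark of interferon gamma in tumours, was not measured in any type. Its highest level in a large type was 1.36 CPM in the Ythdf2 KO library and 1.23 CPM in the WT library, in mature DC, from 2 and 3 UMIs.

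The GTPases were most abundant in monocytes, neutrophils, macrophages and several T cell groups, and among the 10 large types least in NK cells. Summed over the 16 genes, classical monocytes had 2471 CPM in the Ythdf2 KO library and 2574 CPM in the WT library, and macrophages 1839 and 2091 CPM. NK cells had 539 and 547 CPM. The ratio of the sums was 0.960 in classical monocytes (0.948 to 0.972), 0.879 in macrophages (0.867 to 0.892) and 0.985 in NK cells (0.958 to 1.01). Neutrophils stood above WT, with a sum of 2546 against 2041 CPM (1.25, 1.21 to 1.29). The sum was lower in mature DC, at 797 against 1155 CPM (0.690, 0.644 to 0.739), and in CD8 T cells, at 919.5 against 1676 CPM (0.549, 0.504 to 0.597). T cells with NK receptor UMIs (0.971), other T cells (1.07), B cells (1.02) and patrolling monocytes (0.935) stood nearer to 1. A list of 12 genes known as targets of type I interferon was summed in the same way. Its ratio was 0.783 in macrophages, 0.819 in classical monocytes, 1.20 in neutrophils, 0.587 in mature DC and 0.336 in CD8 T cells.

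**Figure D1:**
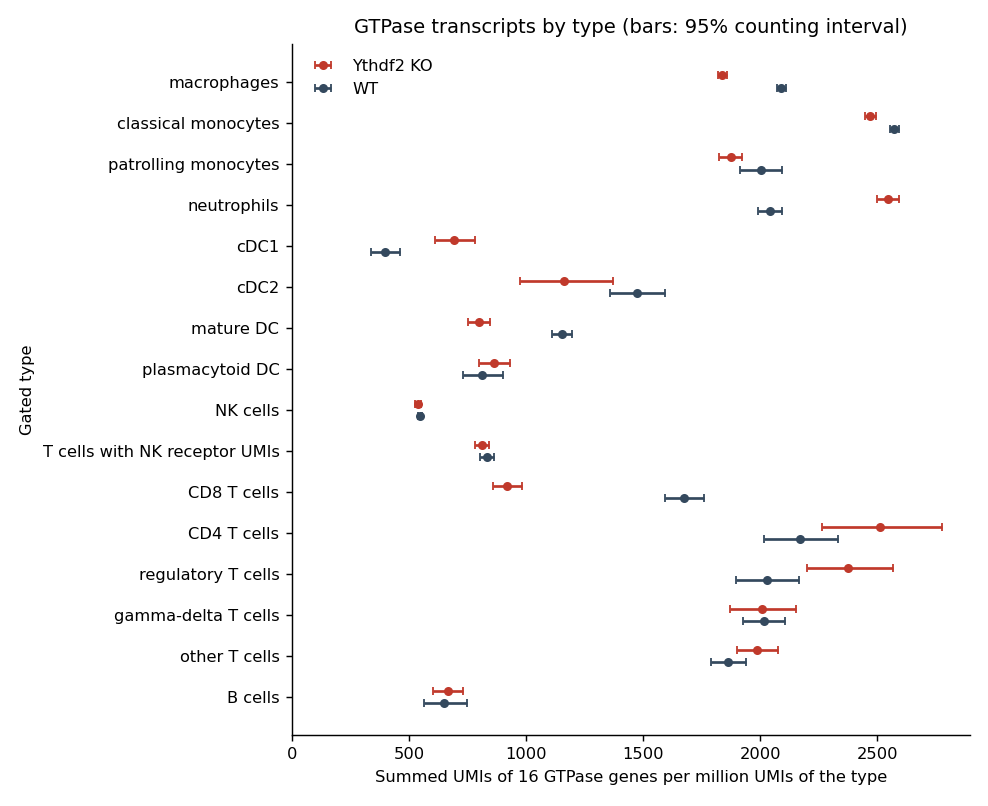
Summed level of the 16 GTPase genes in CPM (horizontal axis) in each gated type, Ythdf2 KO drawn above WT, with 95% counting intervals. CD8 T cells show the widest gap among the types with at least 100 barcodes in each library (919.5 against 1676 CPM), and among those types NK cells lie lowest in both libraries (539 and 547 CPM).

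The single GTPases had their own distributions. Gbp2 was highest in neutrophils in the Ythdf2 KO library, at 824 and 625 CPM (1.32, 1.25 to 1.39), and in classical monocytes in the WT library, at 741 and 774 CPM (0.958, 0.937 to 0.979). Among the large types, classical monocytes held the most Gbp7 and Gbp3. Levels there were 273 and 275 CPM for Gbp7 (0.994, 0.958 to 1.03) and 158 and 163 CPM for Gbp3 (0.964, 0.919 to 1.01). Gbp5, known for its part in inflammasome activation, was highest in neutrophils of the Ythdf2 KO library, at 184 against 151 CPM (1.21, 1.08 to 1.36), and in mature DC of the WT library. Among the large types, Gbp4, Gbp6 and Gbp9 peaked in other T cells. Their levels there were 150.5 and 163 CPM (0.921, 0.745 to 1.14), 128 and 89.2 CPM (1.44, 1.11 to 1.86), and 106 and 141 CPM (0.753, 0.590 to 0.958). Smaller types held more in places, such as Gbp6 in gamma-delta T cells, at 218 and 156 CPM. Gbp2b, also known as Gbp1, passed the minimum of 50 UMIs only in macrophages, at 9.93 and 10.7 CPM (0.932, 0.762 to 1.14), and in classical monocytes, at 3.42 and 4.07 CPM.

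Among the immunity-related GTPases, Iigp1, an effector that coats the vacuole of Toxoplasma, was highest in macrophages of the large types compared. It had 159 CPM in the Ythdf2 KO library and 199.7 CPM in the WT library (0.796, 0.759 to 0.835) there, and 12.9 and 8.75 CPM in NK cells. Ifi47 was highest in neutrophils in the Ythdf2 KO library, at 463 and 337 CPM (1.38, 1.28 to 1.48), and in classical monocytes in the WT library, at 413 and 431 CPM (0.958, 0.929 to 0.987). The regulator Irgm1, which keeps effector GTPases off the cell's own membranes, showed the same pair of types, with 247 and 221 CPM in neutrophils (1.12, 1.02 to 1.23) and 194 and 228 CPM in classical monocytes (0.853, 0.817 to 0.890). Its relative Igtp was highest in other T cells at 218 and 193 CPM (1.13, 0.942 to 1.36), and Irgm2 in neutrophils at 45.8 and 45.5 CPM (1.01, 0.810 to 1.26). Tgtp1 and Tgtp2 also peaked in other T cells, at 22.2 and 16.5 CPM for Tgtp1 and 28.9 and 32.2 CPM for Tgtp2. These 2 genes cannot be told apart with confidence: 73.1% of the 100-base windows of Tgtp1 transcripts also occur in another gene, mostly Tgtp2. The same holds for Gbp6 (64.5%, with Gm43302). Smaller shares, again over whole transcripts, apply to Gbp7 (10.0%), Igtp (5.16%), Gbp8 (4.39%, mostly with Gbp10), Irgm2 (3.01%), Gbp9 (1.65%) and Gbp4 (1.64%). Jak1, Irf1, Batf2, Gbp2 and Ifi47 have exons that overlap a gene on the other strand, and whether counting used strand is not given in the sources used here.

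Counted gene by gene, the members stayed within 1.5-fold in macrophages. All 28 measured members did so, where 7.02% of all 10993 measured genes were at least 1.5-fold apart, 2.16% higher and 4.87% lower. The median log2 ratio was -0.14 over the members and -0.07 over all measured genes. Of the members 23 of 28 were below 1, and of all 10993 measured genes 6737. The type I interferon list had 1 of 11 measured genes lower and none higher, with a median of -0.25 there and, by the same counts, of -0.19 in classical monocytes. In classical monocytes 1 of 28 members was higher (Gbp8) and 1 lower, against 6.05% of all genes in either direction (1.45% higher, 4.6% lower). The lower one was Tgtp1, at 6.41 against 10.2 CPM (0.625, 0.498 to 0.783), and at a ratio of 0.757 with each cell weighing the same. NK cells had 2 of 27 members higher (Gbp8 and Batf2) and none lower, where 6.41% of genes differed by at least 1.5-fold (3.95% higher, 2.46% lower). In T cells with NK receptor UMIs 1 of 25 was higher (Gbp8), where 6.02% of all genes were apart, 1.93% higher and 4.09% lower, and in other T cells 2 of 24 (Gbp8 and Ifngr2), where 10.7% were apart, 5.18% higher and 5.51% lower.

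Patrolling monocytes and neutrophils each had 1 member higher and none lower, and in both it was Gbp6. In patrolling monocytes, where 25 members were measured and 11.0% of all genes differed (6.43% higher, 4.57% lower), Gbp6 had 20.4 against 7.38 CPM (2.76, 1.26 to 7.15). This rests on 61 and 7 UMIs, and with the minimum of marker UMIs doubled the ratio was 1.26. In neutrophils, with 26 members measured and 9.16% of genes apart (6.16% higher, 3.0% lower), Gbp6 had 15.5 against 9.36 CPM (1.65, 1.06 to 2.65). Counting all 26, 18 members of neutrophils were above 1, as were 4046 of all 7094 measured genes. The median log2 ratio was 0.11 over the members and 0.05 over all genes. The 11 genes of the type I interferon list measured in neutrophils had a median of 0.33.

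**Figure D2:**
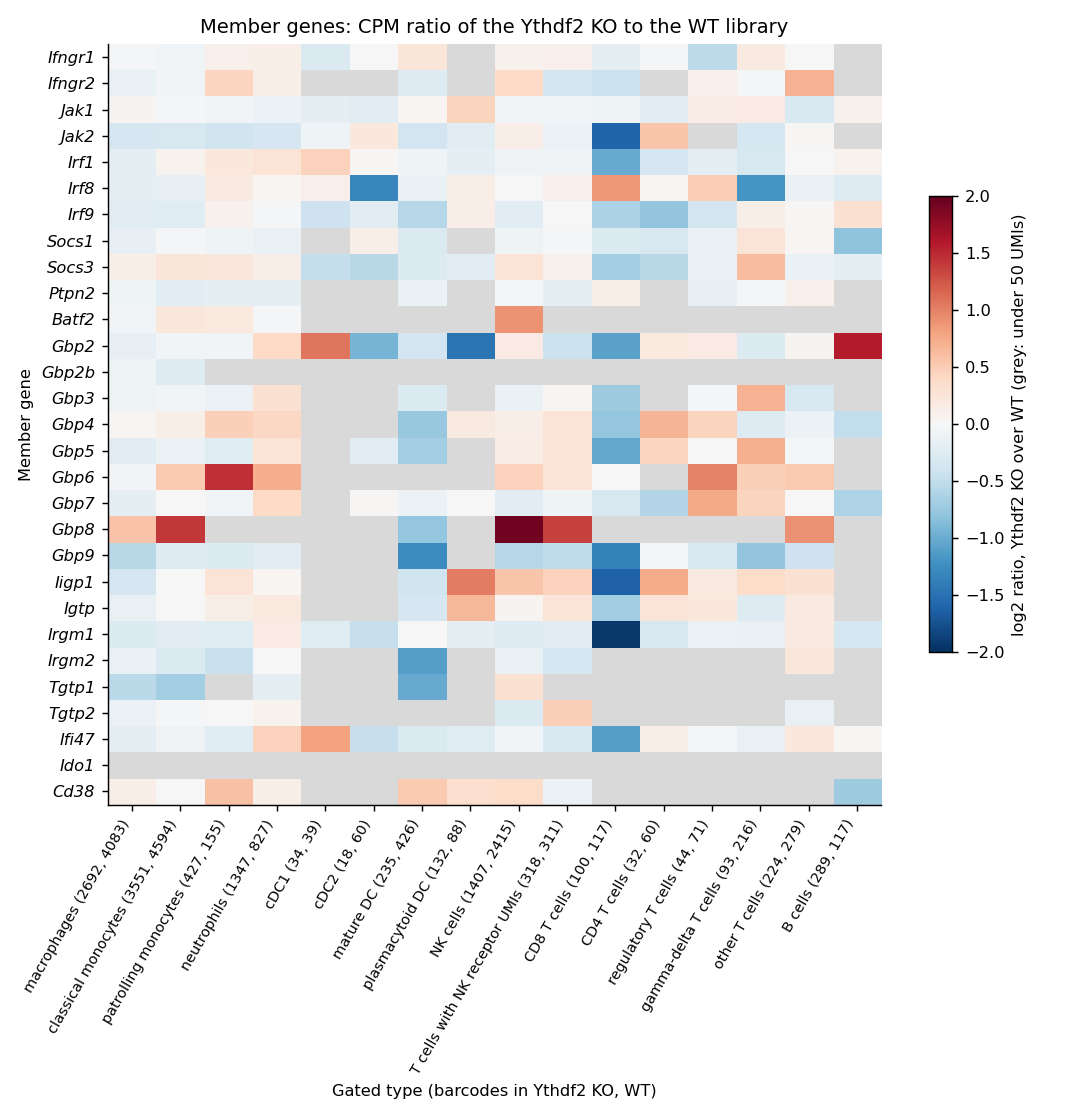
Colour gives the log2 ratio of CPM, Ythdf2 KO over WT, for each member (rows) in each gated type (columns, with barcodes of Ythdf2 KO and WT), grey where under 50 UMIs were counted. The column of CD8 T cells is mostly blue (18 of 21 measured members below 1, beside 2173 of all 4305 measured genes). The row of Gbp8 is red in every measured type apart from mature DC.

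CD8 T cells had the most members past the limit. In the Ythdf2 KO library 13 of the 21 measured members were lower and 1 was higher, where 22.0% of all 4305 measured genes were at least 1.5-fold apart, 8.94% higher and 13.1% lower. The median log2 ratio was -0.70 over the members and -0.01 over all genes. The 13 were 9 of 11 measured GTPases and 4 of 10 signalling genes. The gate held 100 barcodes of the Ythdf2 KO library and 117 of the WT library.

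Among the immunity-related GTPases 4 were lower. Irgm1, whose promoter is printed above, had 35.9 CPM in Ythdf2 KO and 137 CPM in WT CD8 T cells (0.262, 0.174 to 0.386). Iigp1 had 20.04 against 61.7 CPM (0.325, 0.182 to 0.555), Ifi47 had 129 against 277 CPM (0.465, 0.371 to 0.580) and Igtp had 87.5 against 142 CPM (0.615, 0.461 to 0.817). The counting intervals of the 2 libraries did not overlap for any of these 4 genes, which were named here because their ratios had passed the limit. That comparison was not made over all genes, so how common such gaps are is not known. Of the guanylate-binding proteins, Gbp2 had 133 against 279 CPM (0.476, 0.382 to 0.592) and Gbp5 40.1 against 81.6 CPM (0.491, 0.323 to 0.736). Gbp9 had 52.7 against 134 CPM (0.392, 0.276 to 0.549), Gbp4 73.8 against 127 CPM (0.582, 0.426 to 0.791) and Gbp3 48.5 against 79.4 CPM (0.611, 0.413 to 0.897). Gbp6 (63.3 and 62.8 CPM) and Gbp7 (179 and 223 CPM) stayed within 1.5-fold.

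Several of these ratios depended on how the gate was drawn. Igtp came to 0.719 with the limits on second-lineage UMIs dropped and to 0.779 with the minimum of marker UMIs doubled, both within 1.5-fold. Gbp3 came to 0.707 with those limits dropped and to 0.770 in barcodes with few myeloid UMIs, again within 1.5-fold. Irgm1 was at 0.437 with the limits dropped. Iigp1 was at 0.521 with the limits dropped, at 0.143 in barcodes with few myeloid UMIs, from 4 and 19 UMIs, and at 0.209 in cells with a Gzmb UMI. Gbp2 was at 0.305 in barcodes with few myeloid UMIs.

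Upstream of the GTPases, Irf1 was at 120.2 CPM in Ythdf2 KO and 243 CPM in WT CD8 T cells (0.496, 0.392 to 0.624), and Jak2 at 20.04 against 60.6 CPM (0.330, 0.185 to 0.566). Irf9 had 59.1 against 91.5 CPM (0.645, 0.451 to 0.917) and Socs3 93.9 against 149.9 CPM (0.626, 0.474 to 0.824), and neither kept its call in every gate. Irf9 came to 0.683 with second-lineage limits dropped and to 0.779 with the minimum of marker UMIs doubled. Socs3 came to 0.673 when no doublets were removed, to 0.751 with second-lineage limits dropped and to 0.827 with each cell weighing the same. Both receptor chains, Jak1, Socs1 and Ptpn2 were within 1.5-fold. Irf8 was the exception in direction, with 448 CPM in the Ythdf2 KO library and 246 CPM in the WT library (1.82, 1.55 to 2.15), and a ratio of 1.45 once the limits on second-lineage UMIs were dropped. UMIs of the ligand were more frequent in the same cells: Ifng had 1296 against 726 CPM (1.78, 1.62 to 1.96). The remaining large T and NK cell types also had more Ifng. Its ratio was 1.41 in NK cells, 1.37 in T cells with NK receptor UMIs and 3.84 in other T cells. GTPase ratios there were 0.985, 0.971 and 1.07, and a link between Ifng and GTPase levels was not tested. In CD8 T cells the serine protease gene Gzmc had 1784 against 355 CPM, and the pore-forming Prf1 553 against 306 CPM. In the list of type I interferon genes all 10 measured genes were lower, with a median log2 ratio of -1.53.

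**Figure D3:**
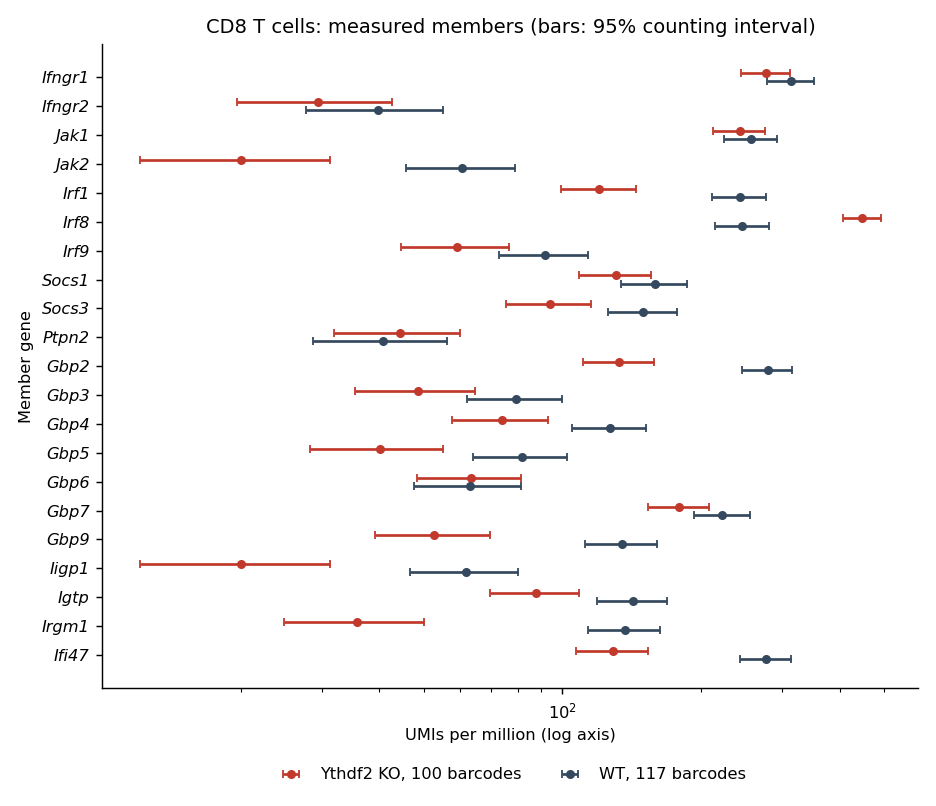
CPM on a log axis for the 21 members measured in CD8 T cells, Ythdf2 KO drawn above WT for each gene, with 95% counting intervals. Irgm1 (35.9 against 137 CPM), Iigp1 (20.04 against 61.7 CPM) and Gbp2 (133 against 279 CPM) lie apart, while Irf8 is higher in Ythdf2 KO (448 against 246 CPM).

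Cell by cell, the GTPase sum had a median of 796 CPM in Ythdf2 KO CD8 T cells, with quartiles of 403 and 1585. In WT CD8 T cells the median was 1606, with quartiles of 733 and 2747. All 3 quartiles were thus lower in the Ythdf2 KO library, and 5 and 4 barcodes had no GTPase UMI. With each cell thinned to 1000 UMIs, 9% of Ythdf2 KO cells (4.20 to 16.4) and 26.7% of WT cells (18.9 to 35.7) had UMIs of at least 3 GTPase members, with 0 and 1 cells left out. Unthinned shares were 71.0% and 82.9%, at median depths of 7802.5 and 6647 UMIs. In B cells, the type with the lowest thinned share among the large ones, it was 0.702% and 3.42%, with 4 and 0 cells left out and median depths of 1958 and 2052 UMIs.

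RNA of myeloid cells was present in this gate and differed in the same direction. Lyz2, Ms4a6c, Cd68 and Apoe summed to 991 CPM in Ythdf2 KO and 1576 CPM in WT CD8 T cells (0.629, 0.579 to 0.683). In the 70 and 65 barcodes with at most 2 UMIs of these 4 genes they summed to 67.2 and 122 CPM, and the GTPase ratio there was 0.546 (0.478 to 0.623). In those barcodes 8 of 14 measured members were lower and 1 higher, where 246 of all 2439 measured genes were lower (10.1%) and 266 higher. Among the 81 and 97 CD8 T cells with a UMI of Gzmb the GTPase ratio was 0.530 (0.483 to 0.581). Both restrictions were added after the data had been seen.

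Mature DC were the second large type with a group of lower members. In the Ythdf2 KO library 6 of 24 measured members were lower and none higher, where 5.96% of 6037 measured genes were lower, 11.2% higher and 17.1% apart in either direction. The median log2 ratio was -0.29, against 0.01 over all genes. Of the type I interferon list 6 of 11 measured genes were lower and none higher there, with a median log2 ratio of -0.71. Gbp9 had 55.8 against 134 CPM (0.415, 0.322 to 0.530), Gbp5 131 against 211 CPM (0.622, 0.524 to 0.735) and Gbp4 74.9 against 127 CPM (0.589, 0.470 to 0.735). Gbp8 had 27.2 against 46.4 CPM (0.586, 0.398 to 0.847). With each cell weighing the same, Gbp9 remained past 1.5-fold (0.571), while Gbp5 (0.747), Gbp4 (0.861) and Gbp8 (0.891) did not. The other 2 genes were Tgtp1, with 8.17 against 16.4 CPM (0.497, 0.237 to 0.966), and Irgm2, with 7.49 against 16.03 CPM (0.467, 0.216 to 0.930) from 11 and 39 UMIs. Irgm2 came to 0.777 with the minimum of marker UMIs doubled and turned to 1.12 in barcodes with at most 2 myeloid UMIs, where the ratio of the GTPase sum was 0.699 (0.638 to 0.765). The 4 myeloid genes summed to 687 and 1075 CPM in the whole gate.

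B cells had 12 measured members, of which 1 was higher and 3 lower, against 13.5% of all genes in either direction (6.53% higher, 6.96% lower). Gbp2 had 94.5 CPM in Ythdf2 KO and 31.7 CPM in WT B cells (2.98, 1.51 to 6.52), from 60 and 10 UMIs, and the ratio was 1.26 when no doublets were removed, 1.65 with second-lineage limits dropped and 1.52 in barcodes with at most 2 myeloid UMIs. Lyz2, a myeloid gene, was at 244 and 117.5 CPM in the same gate, and its part in the Gbp2 value was not tested. Besides Cd38, the lower members were Socs1, at 80.4 against 139.7 CPM (0.575, 0.377 to 0.881), and Gbp7, at 53.6 against 82.5 CPM (0.649, 0.378 to 1.13). Both were within 1.5-fold under 1 alternative, Socs1 at 0.686 with each cell weighing the same and Gbp7 at 0.706 with second-lineage limits dropped.

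A pair of neighbouring guanylate-binding protein genes went in opposite directions, and was picked out after its values had been seen. Gbp8 and Gbp9 lie on the minus strand of chromosome 5 (GRCm38) at positions 105014150 to 105139540 and 105077630 to 105139539. On this strand the upper positions are the 5′ ends of the gene models, and that of Gbp4 lies close by at 105139586. In these models 61 exon bases of Gbp8 and 60 of Gbp9 lie in exons of each other or of Gbp4. Whether the shared bases fall in the 5′ stretch that was read was not tested. In NK cells Gbp8 had 20.6 CPM in the Ythdf2 KO library and 5.45 CPM in the WT library (3.79, 3.09 to 4.67), while Gbp9 had 42.3 and 63.1 CPM (0.670, 0.609 to 0.736). Gbp8 was also higher in classical monocytes, at 17.0 against 6.35 CPM (2.67, 2.19 to 3.28), in T cells with NK receptor UMIs, at 24.3 against 9.42 CPM (2.58, 1.72 to 3.95), and in other T cells, at 36.7 against 19.5 CPM (1.88, 1.11 to 3.23). Gbp9 was below 1 in all 9 large types in which it was measured, and Gbp8 above 1 in 5 of 6.

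As a share of the UMIs of both genes, Gbp8 made up 25.5% over all cells of the Ythdf2 KO library (24.6 to 26.4) and 12.8% in the WT library (12.3 to 13.4). The share was 32.8% and 7.95% in NK cells, 30.3% and 16.7% in macrophages, 17.5% and 6.25% in classical monocytes and 40.5% and 7.58% in CD8 T cells. It was higher in the Ythdf2 KO library in 15 of 17 types. It was lower in cDC2, and mast cells or basophils of that library had no UMI of either gene. Some of the 15 rest on few UMIs, such as cDC1, with 3 of Gbp8 and 8 of Gbp9 against 0 and 10 in WT. Intervals of both libraries overlapped in several, among them mature DC and patrolling monocytes. The sum of Gbp8 and Gbp9 moved less, with a ratio of 0.830 over all cells (0.809 to 0.852). Gbp4, the third gene of the overlap, had a ratio of 1.01 over all cells. Gbp10, from the same cluster but not a member, had 3.07 and 8.23 CPM (0.372, 0.329 to 0.421), and 73.5% of its windows also occur in another gene. The share was 4.39% for Gbp8, mostly with Gbp10, and 1.65% for Gbp9, mostly with Gbp4. These window shares cover whole transcripts, not only the 5′ ends that the kit captures. Whether reads of Gbp8, Gbp9 and Gbp10 were assigned to the right gene was not tested.

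**Figure D4:**
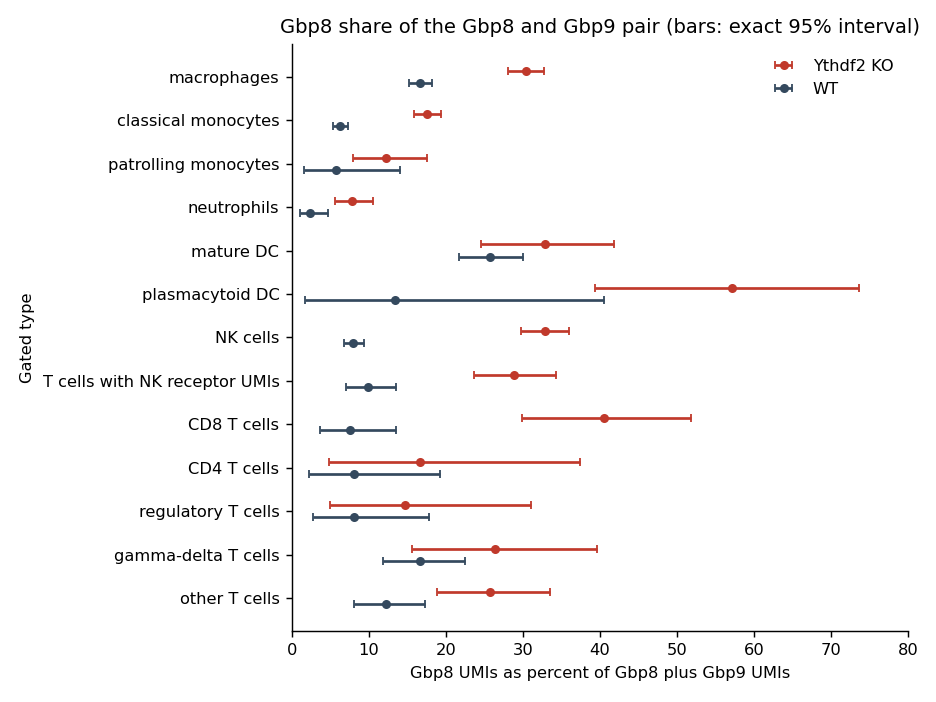
Gbp8 UMIs as a percent of Gbp8 plus Gbp9 UMIs (horizontal axis) by type, Ythdf2 KO drawn above WT, with exact 95% intervals. The Ythdf2 KO share lies above the WT share in every type drawn, with 32.8% against 7.95% in NK cells and 30.3% against 16.7% in macrophages.

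Within a library, the GTPases tracked other marks of cell state. Macrophages with a UMI of Cxcl9, a chemokine induced by interferon gamma, had 2489 GTPase CPM in the Ythdf2 KO library, against 1614 CPM in those without (1.54, 1.51 to 1.58). In the WT library the values were 2906 and 1870 CPM (1.55, 1.52 to 1.58). All 16 GTPases were higher with Cxcl9 in both libraries, for example Gbp2b, at 16.4 against 7.71 CPM in Ythdf2 KO (2.13, 1.55 to 2.90) and 17.9 against 8.69 CPM in WT (2.06, 1.56 to 2.70). Gbp4, Gbp2 and Iigp1 had ratios of 2.02, 1.95 and 1.94 in Ythdf2 KO and 1.96, 1.93 and 1.89 in WT. The type I interferon list stood at 1.06 and 1.08 in the same split. Of the 13 other members 10 were higher with Cxcl9 in both libraries, for example Batf2 (1.51 and 1.85), Socs1 (1.37 and 1.499) and Irf1 (1.32 and 1.34), while Ifngr1 was lower (0.823 and 0.825). Cells with a Cxcl9 UMI were deeper, with medians of 6537 and 5513 UMIs against 5333 and 4574 UMIs. The part of depth was not tested, and the same split was not counted over all genes.

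Arg1, the arginase of suppressive macrophages, went with lower GTPase levels. Macrophages with a UMI of Arg1 had 1557 GTPase CPM against 1931 CPM without one in the Ythdf2 KO library (0.806, 0.785 to 0.828), and 1869 against 2256 CPM in the WT library (0.828, 0.813 to 0.844). In both libraries 15 of the 16 GTPases were lower with Arg1, and Gbp8 had a ratio of 1.11 in Ythdf2 KO and 0.828 in WT. Genes outside the set were not counted in this split either. The split held 534 of 2692 Ythdf2 KO and 1522 of 4083 WT macrophages with Arg1, with median depths of 7012.5 and 5386.5 UMIs, against 5185.5 and 4339 UMIs without it. A Cxcl9 UMI was present in 581 and 721 macrophages. Cells with both genes had 2222 GTPase CPM in the Ythdf2 KO library and 2800.5 CPM in the WT library, above the 1708 and 2069 CPM of cells with neither. Cells with Cxcl9 alone had 2576 and 2994 CPM, and cells with Arg1 alone 1331 and 1593 CPM. Within each of these states the Ythdf2 KO level was the lower one: the ratio was 0.857 with Cxcl9, 0.863 without, 0.833 with Arg1 and 0.856 without. With the make-up by both genes held fixed it was 0.832, against 0.879 over all macrophages.

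Classical monocytes gave the same order of states with a wider spread between libraries. GTPase CPM with over without Cxcl9 was 3846 against 2242 in the Ythdf2 KO library (1.72, 1.68 to 1.75) and 3594 against 2445 in the WT library (1.47, 1.44 to 1.503). With over without Arg1 it was 1674 against 2538 (0.659, 0.633 to 0.687) and 2091 against 2695 (0.776, 0.759 to 0.793). Set side by side, Ythdf2 KO monocytes with Cxcl9 were slightly above their WT counterparts (1.07, 1.04 to 1.10) and those without were below (0.917, 0.905 to 0.930).

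**Figure D5:**
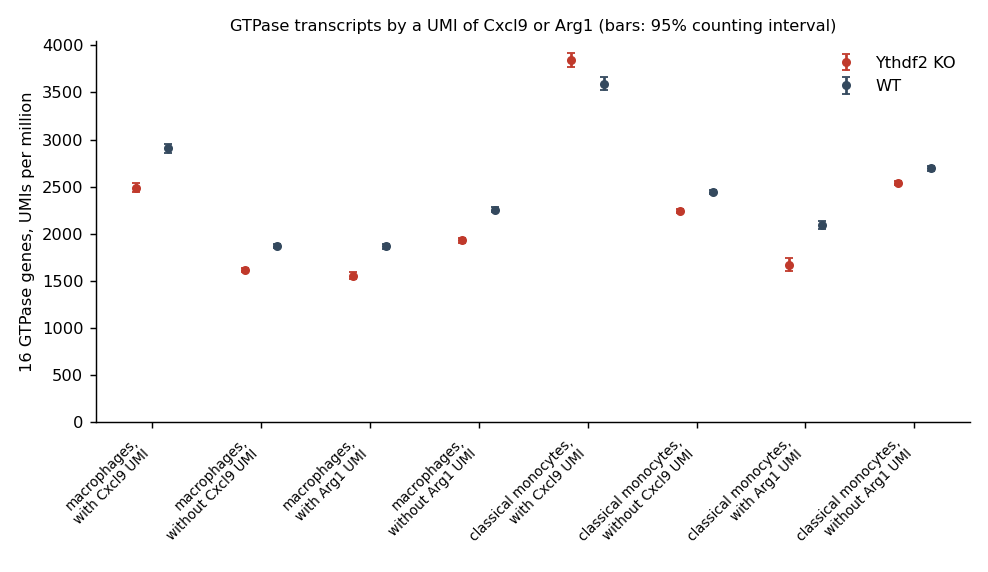
Summed level of the 16 GTPase genes in CPM (vertical axis) in macrophages and classical monocytes with and without a UMI of Cxcl9 or Arg1, Ythdf2 KO left of WT in each pair, with 95% counting intervals. Cells with Cxcl9 lie highest (2489 and 2906 CPM in macrophages) and cells with Arg1 below those without it in both libraries.

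The remaining 7 types had under 100 barcodes in at least 1 library and are given as values only. In regulatory T cells Gbp7 had 489 against 288 CPM (1.70, 1.32 to 2.19) and Gbp6 142 against 71.3 CPM (1.99, 1.21 to 3.30), where 20 members were measured, 2 were higher and 12.4% of all genes differed (5.65% higher, 6.8% lower). In gamma-delta T cells, with 3 of 21 higher and 2 lower (all genes 13.0%, 4.44% higher and 8.55% lower), Socs3 had 216 against 141 CPM (1.53, 1.16 to 2.02), Irf8 74.4 against 168 CPM (0.443, 0.289 to 0.657) and Gbp9 104 against 179 CPM (0.580, 0.404 to 0.817). Gbp3 (1.61, 0.978 to 2.62) and Gbp5 (1.64, 0.963 to 2.74) passed the limit with intervals that included 1. In CD4 T cells 2 of 17 were higher and 2 lower (all genes 17.6%, 8.78% in each direction): Iigp1 had 257 against 154 CPM (1.67, 1.08 to 2.57), Gbp4 250.5 against 157 CPM (1.60, 1.03 to 2.46), Gbp7 178 against 267 CPM (0.666, 0.417 to 1.03) and Irf9 72.5 against 125 CPM (0.580, 0.270 to 1.14). The sum of the GTPases in these cells was 2512 against 2170 CPM.

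Among the rare DC, plasmacytoid DC had 2 of 14 members higher and 1 lower (all genes 18.6%, 8.28% higher and 10.3% lower). Iigp1 stood at 204 against 101 CPM (2.02, 1.44 to 2.90), Igtp at 54.3 against 34.4 CPM (1.58, 0.856 to 3.07) and Gbp2 at 31.8 against 87.0 CPM (0.365, 0.209 to 0.625). In cDC1, 2 of 10 were higher (all genes 12.2%, 6.86% higher and 5.33% lower), Gbp2 at 93.7 against 44.5 CPM (2.10, 1.16 to 3.95) and Ifi47 at 161 against 91.5 CPM (1.76, 1.15 to 2.72). In cDC2, 2 of 13 were lower (all genes 20.5%, 8.06% higher and 12.5% lower), Gbp2 at 187 against 356 CPM (0.524, 0.319 to 0.823) and Irf8 at 76.3 against 189 CPM (0.404, 0.178 to 0.807). The gates held 34 and 39 cDC1 and 18 and 60 cDC2. Gbp2 thus lay on different sides of 1 in cDC1, B cells and neutrophils as against CD8 T cells, cDC2 and plasmacytoid DC, a difference that was not tested. Mast cells or basophils, with 14 and 37 barcodes, had Jak1 as their only measured member, at a ratio of 0.838, where 51.7% of all genes were past 1.5-fold (26.2% higher, 25.6% lower).

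Other genes of the pathway, a list of 37, were counted beside the members. In macrophages 35 were measured, of which 1 was higher and 2 were lower, where 2.16% of all genes were higher and 4.87% lower, with a median log2 ratio of -0.15. The 3 highest ratios were those of the adhesion molecule Vcam1, at 7.04 against 3.55 CPM (1.98, 1.48 to 2.66), the uridine phosphorylase Upp1, at 156 against 108 CPM (1.44, 1.36 to 1.52), and the aminopeptidase Lap3, at 29.9 against 23.0 CPM (1.30, 1.15 to 1.47). The 3 lowest were those of Gbp10, at 2.10 against 8.68 CPM (0.242, 0.165 to 0.345), Gvin1, at 2.55 against 4.36 CPM (0.585, 0.402 to 0.842), and Ifng itself, at 3.23 against 4.59 CPM (0.705, 0.501 to 0.985). In CD8 T cells 13 of 28 measured genes of this list were lower and 2 higher (all genes 13.1% lower and 8.94% higher), with a median log2 ratio of -0.55. In mature DC 2 of 30 were lower and none higher (all genes 5.96% lower and 11.2% higher). NK cells had 4 of 35 higher and 1 lower (all genes 3.95% higher and 2.46% lower), and neutrophils 4 of 31 higher and none lower (all genes 6.16% higher and 3.0% lower).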

How the data were processed

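UMI counts per gene and barcode were deposited for both libraries as matrices, with no normalization by the authors. Per the file headers they came from Cell Ranger 6.1.1. Version 5.0.1 of that tool, Seurat 4.0.4 and build mm10 are what the submitters' processing notes give, and the versions remain in conflict. A barcode was kept with at least 200 genes, 500 UMIs and a mitochondrial share of 10% or less (15844 Ythdf2 KO and 20415 WT). Scrublet (scanpy 1.11.5) scores were computed per library and the 8% highest removed (1268 and 1633). Gates required marker UMIs of 1 lineage, for example 3 of Cd3d, Cd3e, Cd3g and Trac for T cells, 2 of Cd8a and Cd8b1 for CD8 T cells and 5 of C1qa, C1qb and C1qc for macrophages. Limits on UMIs of other lineages set aside 2146 and 2995 barcodes, and 1473 and 1892 met no gate. Types carry the names of their gates. UMIs were summed per type and library and divided by the type's total. Intervals are exact Poisson for levels, Clopper-Pearson for shares and for ratios, at 95%, and molecules of 1 library are not independent samples. The steps were tested on simulated counts. Python 3.11.15, numpy 2.4.6, scipy 1.17.1 and pandas 2.3.3 were used, and gene models were those of GENCODE vM21.

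Members are named with values in the large type of their highest level and wherever the ratio was at least 1.5-fold from 50 UMIs. Large types held at least 100 barcodes in each library. Pathway genes are named for the 3 highest and 3 lowest ratios in macrophages. The members, lists, gates and this rule were chosen with earlier results of these data known. Of the pathway list Cxcl11 and Gbp11, and of the 12 type I interferon genes Mx1, had no row of that symbol. Irf7 stands in both lists. Alternatives changed the mitochondrial limit, doublet removal, second-lineage limits, marker minimum, scaling, weight of cells, shared barcodes and the minimum of UMIs, and 2 were added after the data had been seen. One gene of the pathway list is not reported here by name.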

Additional observations from a re-analysis of the deposited data

Results flagged for a closer look

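The ratios below stood at least 1.5-fold above 1 in some types and at least 1.5-fold below 1 in others, for the same gene and the same comparison. Whether the types differ was not tested, since each genotype has 1 library. Gbp2 had a ratio of Ythdf2 KO over WT of 0.476 in CD8 T cells and of 2.98 in B cells. Gbp8 had ratios of 3.79 in NK cells, 2.67 in classical monocytes, 2.58 in T cells with NK receptor UMIs and 1.88 in other T cells, against 0.586 in mature DC.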

How the results depend on the processing

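Under the alternatives, 36 of the values for the main comparisons moved by less than their counting interval, or by less than 1.5 times for counts, and 14 moved further. With second-lineage limits dropped, the ratio of the GTPase sum was 0.893 in macrophages, 0.975 in classical monocytes and 0.618 in CD8 T cells. Median of ratios scaling gave 0.921 in macrophages, and holding the make-up by Arg1 and Cxcl9 fixed gave 0.832. In classical monocytes a doubled marker minimum gave 0.945 and equal weight of cells 0.977. No alternative moved the ratio in NK cells outside 0.963 to 1.00 or that in CD8 T cells outside 0.514 to 0.618. The count of members at least 1.5-fold apart in macrophages, 0 in the main analysis, was 1 without doublet removal, with second-lineage limits dropped, with a doubled marker minimum, under median of ratios scaling and with 1 UMI in each library as the minimum, and 2 with equal weight of cells. In classical monocytes equal weight of cells gave 1 in place of 2, and a minimum of 1 UMI in each library gave 3. Of the values for single types and genes 340 kept within their interval, 24 moved and 1 reversed, Irgm2 in mature DC at 1.12. Only a ratio past 1.5-fold in the main analysis could be labelled as reversed. Ratios nearer to 1 crossed it without that label. Examples are the GTPase sum in patrolling monocytes (0.935, up to 1.06) and in B cells (1.02, down to 0.865). The cause was not tested in any of these cases. Ranges of over 1.5 times included those of the sum in cDC1 (1.01 to 1.79) and cDC2 (0.513 to 0.875), Gbp6 in patrolling monocytes (1.26 to 3.65), Gbp2 in B cells (1.26 to 3.04) and in CD8 T cells (0.305 to 0.627), Iigp1 (0.143 to 0.521), Irgm1 (0.256 to 0.437), Jak2 (0.222 to 0.446) and Socs3 (0.457 to 0.827) in CD8 T cells and Irgm2 (0.436 to 1.12) and Gbp8 (0.542 to 0.891) in mature DC. Types with few barcodes limit what depth can show. No paired analysis was possible because each genotype has 1 library.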
